A study of Mus musculus with 16 samples.

Results

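The semaphorin, plexin, neuropilin, Slit, Robo, netrin and netrin receptor genes were taken from the table by symbol: 49 of its 30386 genes matched, 28 of them genes of ligands and 21 genes of receptors. They were compared between *Dbx2*-NSPCs and *GFP*-NSPCs, and 37 of the 49 were expressed highly enough to be tested. Of these, 11 passed the test (29.7%, against 15.8% of all tested genes). *Sema3f*, *Plxna1*, *Slit1* and *Robo3* were higher in *Dbx2*-NSPCs, and *Sema3a*, *Sema6d*, *Plxnc1*, *Robo2*, *Ntn4*, *Ntng1* and *Unc5b* were lower. Of these calls, *Slit1* and *Ntng1* entered the test only through the group in which they are high, and *Sema3f* almost so. The calls of *Slit1* and *Plxnc1* were lost in 18 of 26 and 14 of 27 other ways of processing the data. The clearest differences were those of *Sema3a* and *Robo2*, whose groups did not overlap in any library, as in 3.41% of all tested genes. *Ntn4*, *Plxnc1* and *Unc5b* lie on chromosome 10, where 37.0% of the tested genes were called lower. *Ntn4* did not pass in the libraries numbered 1 to 4 alone (limma adjusted p = 0.586).

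Semaphorins, Slits and netrins are secreted or membrane-bound cues that attract or repel growing axons and migrating cells. Class 3 semaphorins are secreted, and most act through a neuropilin bound to a class A plexin. The other semaphorins act mostly on plexins directly, and Slits act on Robo receptors. Netrin-1, the product of *Ntn1*, acts on Dcc, Neo1 and the Unc5 receptors, whereas *Ntn4* binds laminins and *Ntng1* binds *Lrrc4c*. In the adult subventricular zone (SVZ), Slit and Robo proteins are known for steering neuroblasts on their way to the olfactory bulb.

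The cells were neural stem/progenitor cells (NSPCs) from the SVZ of C57BL/6 J/Babr mice of 3 months of age, grown as neurospheres with EGF and FGF2. The 8 *GFP*-NSPC libraries came from cells that carried the control plasmid *pTP6-hrGFP*, and the 8 *Dbx2*-NSPC libraries from cells that carried *pTP6-Dbx2*, which expresses the homeodomain transcription factor *Dbx2* constitutively. Both kinds of line were made by nucleofection and kept under puromycin, and the promoter of the plasmid is not given in the sources used here. The study used pairs of lines from independent derivations and repeated the experiment with each pair, but the labels do not say which line a library came from. The 8 libraries of a group are thus not 8 independent derivations, and p-values measure the spread between cultures of a few lines. The labels number the libraries of each group from 1 to 8.

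The libraries hold reads near the 3′ end of each transcript, given as CPM, that is, the reads of a gene scaled to the total reads of its library. CPM were not divided by transcript length, because such libraries give about 1 read per transcript. A library held 1803928 to 3258885 reads in *GFP*-NSPCs and 2214008 to 3293285 in *Dbx2*-NSPCs, so that 3 reads, taken as the floor of detection, are worth 0.911 to 1.66 CPM. This floor covers counting error only. *Dbx2* itself was at 30.67 to 171.22 CPM in *GFP*-NSPCs, against 114 to 232.13 CPM in *Dbx2*-NSPCs (log2 fold change 1.26, limma adjusted p = 0.00978). Its log2 fold change was 0.54 in the libraries numbered 1 to 4 and 1.99 in those numbered 5 to 8 (adjusted p of the difference = 1.04e-04), and its part in the differences between these sets was not tested. The 3′ end of the plasmid transcript is not given in the sources used here, so these values may not count the transgene in full. In both groups many genes differed between libraries 1 to 4 and libraries 5 to 8, and the values of each of these sets are given beside the pooled ones. All 10 NSPC markers were detected, with a summed level of 6711 to 7777 CPM in *GFP*-NSPCs, against 5787 to 7284 CPM in *Dbx2*-NSPCs. Of these, *Fabp7*, *Msi1* and *Egfr* were called lower (log2 fold changes -0.72, -0.56 and -0.45, adjusted p = 0.0149, 0.0148 and 0.00433) and 0 higher. The summed levels of 5 endothelial, 4 mural and 5 microglial markers were at most 4.29 CPM in any library, and *Cdh5*, *Cldn5*, *Tie1* and *Aif1* were at 0 in all. Of 6 astrocyte markers, *Gfap* was higher and *Aldh1l1* and *Slc1a3* were lower in *Dbx2*-NSPCs, and their summed level was 713 to 2488 CPM in *GFP*-NSPCs, against 522 to 1422 CPM in *Dbx2*-NSPCs. Of 7 tested neuronal markers *Neurod1* alone was called, and it was higher, as was *Ccdc153* of 2 tested ependymal markers (log2 fold change 1.75, adjusted p = 0.0102). But *Dcx* was at -2.87 in libraries 1 to 4 and 3.025 in libraries 5 to 8 (limma adjusted p of the difference = 3.26e-07). For *Rbfox3* these log2 fold changes were -1.96 and 2.90 (3.90e-06). The folds of *Neurod1*, *Nes*, *Hes5* and *Slc1a2* also differed between the sets (0.0327, 0.00488, 0.00662 and 2.67e-06). The part of these markers in the results below was not tested. In such bulk libraries, fewer cells that express a gene and less RNA per cell cannot be told apart.

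The 12 genes that were too low to be tested were *Dcc*, *Ntn5*, *Ntng2*, *Robo4*, *Sema3b*, *Sema3g*, *Sema4a*, *Sema4d*, *Sema4f*, *Slit2*, *Slit3* and *Unc5d*. Only *Dcc*, *Ntn5* and *Sema3b* of these had more than 3 reads in any library. *Dcc*, the classical receptor of netrin-1, reached 10 reads (3.26 CPM) in 1 *GFP*-NSPC library and was at 3 reads or fewer in 7 of 8 libraries of each group. *Sema3b* was above 3 reads in 3 *Dbx2*-NSPC libraries and in 0 *GFP*-NSPC libraries. *Sema3g* had 0 of 45295840 reads over all libraries, which allows a level of up to 0.0662 CPM. Of the canonical secreted Slit ligands, neither *Slit2* nor *Slit3* exceeded 2 reads in a library, while *Robo1*, *Robo2* and *Robo3* were tested.

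At the other end of the range, *Sema6a*, a membrane-bound semaphorin that binds *Plxna2* and *Plxna4*, had the highest mean level of the 49 genes, 180.8 ± 49.5 CPM with the control transgene and 180.4 ± 91.7 CPM with *Dbx2* (mean ± SD over 8 libraries). *Plxnb2*, a receptor of class 4 semaphorins, followed with 119 ± 30.1 and 125 ± 17.1 CPM. For neither was a difference called (limma adjusted p = 0.779 and 0.684), with a 95% interval of the log2 difference from -0.74 to 0.45 for *Sema6a* and from -0.19 to 0.39 for *Plxnb2*. The highest netrin receptor was *Neo1*, with 52.4 ± 6.46 and 58.3 ± 11.2 CPM, and the interval of its log2 difference ran from -0.11 to 0.39. All 9 plexins were expressed highly enough to be tested, against 1 of 3 Slit genes and 4 of 6 netrin receptor genes.

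**Figure D1:**
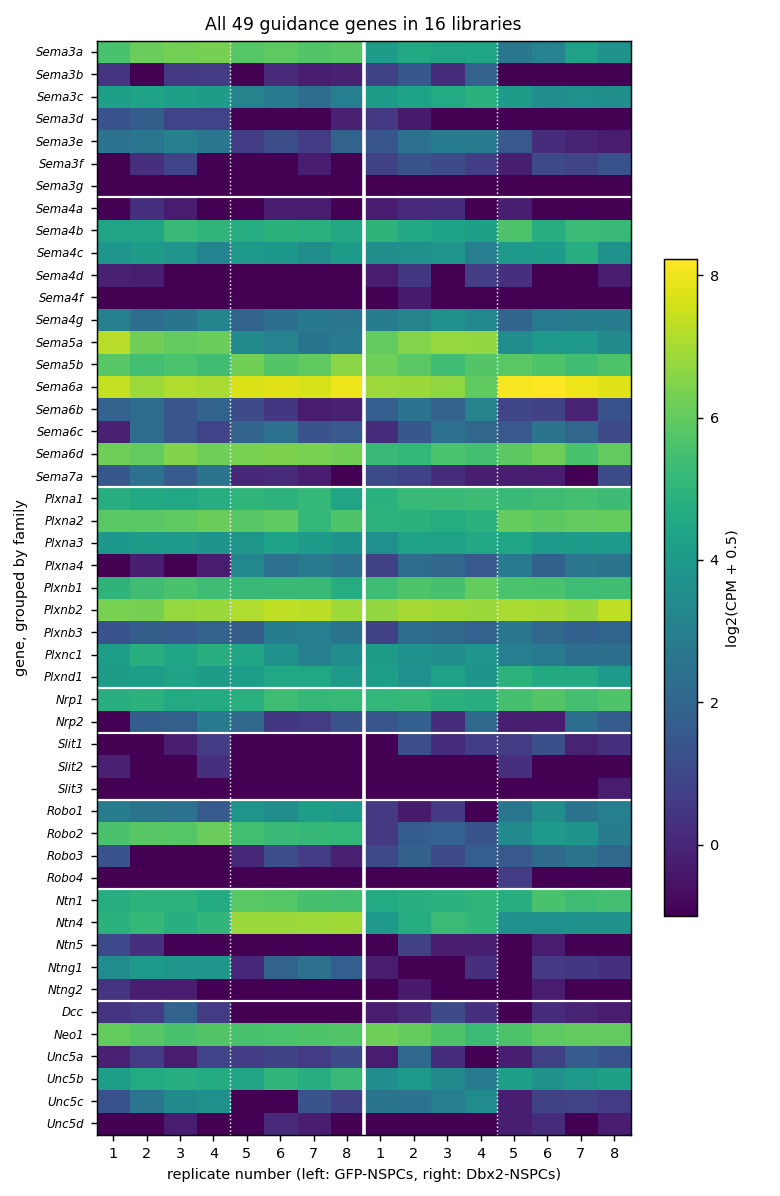
Level of all 49 guidance genes, as log2(CPM + 0.5) in colour, in the 8 *GFP*-NSPC libraries (left) and the 8 *Dbx2*-NSPC libraries (right), with genes grouped by family and dotted lines between libraries 4 and 5. *Sema6a* and *Plxnb2* are bright in every library, *Robo2* and *Sema3a* are darker in all 8 *Dbx2*-NSPC libraries, and *Ntn4* changes at the dotted line in *GFP*-NSPCs.

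A gene is called here when limma's adjusted p is under 0.05 over all 12533 tested genes, on log2(CPM + 0.5), and log2 fold changes are *Dbx2*-NSPCs minus *GFP*-NSPCs. Of the 37 tested guidance genes 11 were called (29.7%), against 15.8% of all tested genes. This count includes *Slit1*, which exceeded 1 CPM in 4 *Dbx2*-NSPC and 0 *GFP*-NSPC libraries, and *Ntng1*, with 7 *GFP*-NSPC and 0 *Dbx2*-NSPC libraries; both entered the test through the group in which they are high, as did *Sema3f* but for 1 library, so the share is a description only. In the upward direction there were 4, where 8.03% of all genes were called, and in the downward direction 7, where 7.78% were called. Another 3 had an unadjusted p under 0.05 without passing the adjustment. The median log2 fold change of the 37 genes was 0.04, against -0.02 over all tested genes, and the median of its absolute size was 0.43, against 0.23. The ligand genes gave 6 calls among 19 tested (2 higher, 4 lower) and the receptor genes 5 among 18 (2 higher, 3 lower). With the replicate number as a block 14 guidance genes were called, 6 higher and 8 lower, where 21.7% of all genes were called.

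**Figure D2:**
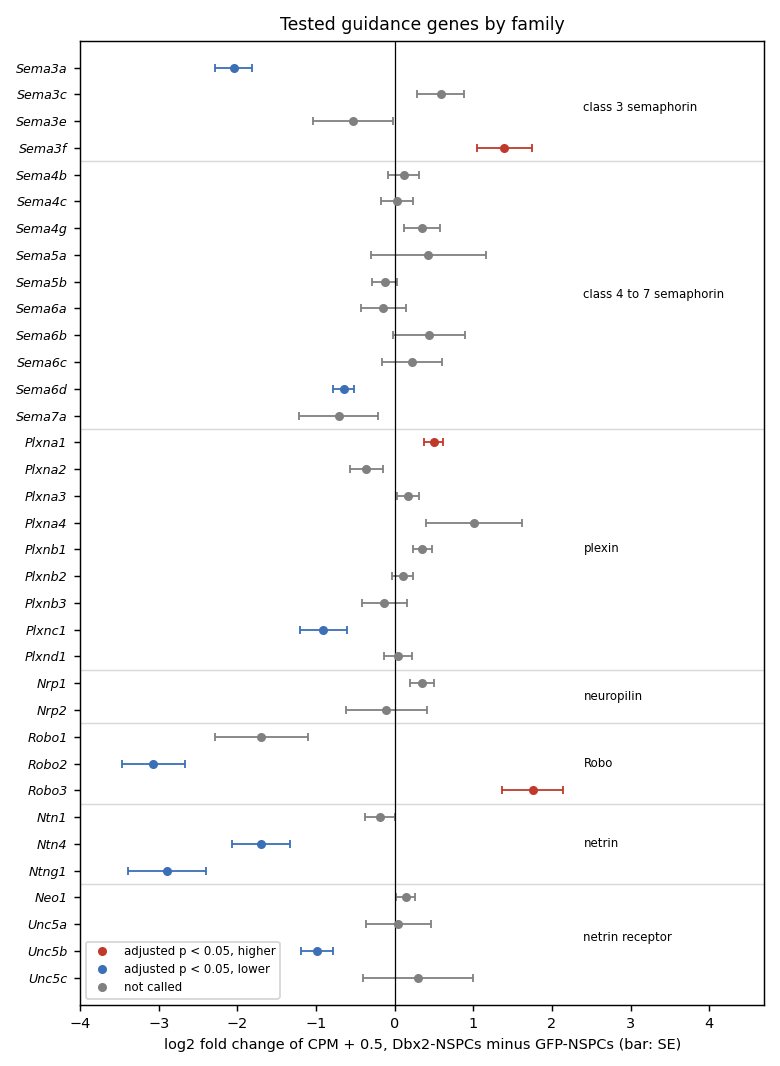
Log2 fold change of CPM + 0.5 (*Dbx2*-NSPCs minus *GFP*-NSPCs, horizontal axis) of 35 of the 37 tested guidance genes by family (*Slit1* and *Sema3d*, under 3 reads per library on average in both groups, are not drawn); points are estimates over 8 against 8 libraries and bars are limma standard errors. The 7 blue genes were lower and the 3 red genes higher at an adjusted p under 0.05, with *Robo2* at -3.07 and *Robo3* at 1.76 as the ends of the called range.

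For the promoters, the RefSeq windows of GRCm38.p6, from 250 bases before to 50 bases after a start, were searched on both strands for TAATTA and TAATTG, the core letters read by many homeodomain proteins. This search was chosen after the calls were known. Of the 11 called genes 8 have such a window, and 3 of these, *Robo2*, *Robo3* and *Ntng1*, hold at least 1 of the words; of the 26 tested genes that were not called 23 have a window and 0 hold them. Over all 27025 genes with windows, 14.2% hold at least 1 of them, 6.12% TAATTA and 9.22% TAATTG. The 3 windows are shown 5′ to 3′ on the strand of the gene, which is the minus strand for each, with the word in capitals. The *Robo2* window, chr16:75447244-75447543, is 1 of 3 for this gene and belongs to a start upstream of the gene's GENCODE bounds, and 3′ reads do not tell which start was used. The *Robo3* window is chr9:37433126-37433425, and the *Ntng1* window, with its word at base 287, is chr3:110143423-110143722. These words describe the sequence and no binding was measured.
Robo2: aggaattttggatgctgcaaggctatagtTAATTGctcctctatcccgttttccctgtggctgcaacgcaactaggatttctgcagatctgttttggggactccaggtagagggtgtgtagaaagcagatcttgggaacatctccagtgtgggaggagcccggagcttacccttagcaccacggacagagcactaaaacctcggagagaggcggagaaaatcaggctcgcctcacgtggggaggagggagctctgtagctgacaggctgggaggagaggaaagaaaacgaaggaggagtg
Robo3: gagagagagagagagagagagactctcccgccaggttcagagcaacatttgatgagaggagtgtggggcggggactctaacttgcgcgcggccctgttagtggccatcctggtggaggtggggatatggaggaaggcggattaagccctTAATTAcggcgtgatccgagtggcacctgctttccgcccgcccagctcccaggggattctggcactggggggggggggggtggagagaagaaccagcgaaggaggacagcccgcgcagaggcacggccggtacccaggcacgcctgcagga
Ntng1: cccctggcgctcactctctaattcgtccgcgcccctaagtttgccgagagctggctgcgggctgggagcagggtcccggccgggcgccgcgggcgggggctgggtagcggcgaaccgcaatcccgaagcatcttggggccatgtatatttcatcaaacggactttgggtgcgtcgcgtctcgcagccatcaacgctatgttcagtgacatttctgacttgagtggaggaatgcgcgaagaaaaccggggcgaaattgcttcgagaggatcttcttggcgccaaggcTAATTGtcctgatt
The word stands at base 30 of the *Robo2* window and at base 150 of the *Robo3* window, before the start, and after the start in the *Ntng1* window. *Robo2* and *Ntng1*, which hold TAATTG, were lower in *Dbx2*-NSPCs, and *Robo3*, which holds TAATTA, was higher.

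Among the secreted class 3 semaphorins, *Sema3a*, a repellent that binds *Nrp1*, had the highest level and the clearest difference. *Sema3a* (ENSMUSG00000028883; GRCm38 chromosome 5, 13125414 to 13602565) ran from 47.14 to 80.64 CPM in *GFP*-NSPCs, with a median of 58.9. In *Dbx2*-NSPCs it ran from 5.98 to 23.67 CPM, with a median of 17.7. Groups that do not overlap were seen in 2 of the 37 guidance genes, *Sema3a* and *Robo2*, both lower, and in 3.41% of all tested genes (1.60% higher, 1.81% lower). For *Sema3a* the log2 fold change was -2.05 (SE 0.237, adjusted p by limma = 7.53e-06), and it was -1.71 in the libraries numbered 1 to 4 and -2.38 in those numbered 5 to 8. Since its groups do not overlap, *Sema3a* was necessarily lower in all 8 numbers compared one by one. Its log2 fold change stayed between -2.14 and -1.87 over the alternatives that keep both sets of numbers.

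*Sema3f*, a secreted semaphorin that acts through *Nrp2*, was close to the floor and was called in the opposite direction. It had 0 to 4 reads per *GFP*-NSPC library (0 to 1.30 CPM) and 1 to 7 reads per *Dbx2*-NSPC library (0.35 to 2.12 CPM), in all 7 reads against 34. All 8 numbers were higher in *Dbx2*-NSPCs, but the ranges of the groups overlapped. Its log2 fold change was 1.39 (SE 0.348, adjusted p by limma = 0.00969), and it ran from 0.58 to 2.68 with the pseudocount, so its size is not settled at this depth. *Sema3f* exceeded the limit of the filter almost only in *Dbx2*-NSPCs.

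The other tested class 3 genes were *Sema3c*, *Sema3d* and *Sema3e*, and none was called. *Sema3c* had a log2 difference of 0.58 (95% interval -0.05 to 1.22, limma adjusted p = 0.209) and was called with the replicate block (adjusted p = 0.0290). *Sema3d* had 22 reads over all *GFP*-NSPC libraries, 21 of them in numbers 1 to 4, and 4 reads over all *Dbx2*-NSPC libraries. Added up, the class 3 genes gave 58.4 to 107.5 CPM per *GFP*-NSPC library and 21.1 to 61.4 CPM per *Dbx2*-NSPC library.

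Among the 10 tested membrane-bound semaphorins of classes 4 to 7, only *Sema6d* was called. *Sema6d* (ENSMUSG00000027200; chromosome 2, 124089969 to 124667770), a ligand of *Plxna1*, ran from 64.54 to 87.97 CPM in *GFP*-NSPCs (median 79.1) and from 34.30 to 72.37 CPM in *Dbx2*-NSPCs (median 47.4). The groups overlapped, yet each *Dbx2*-NSPC library lay below the *GFP*-NSPC library of its number. On the log2 scale the change was -0.65 (SE 0.137, adjusted p by limma = 0.00271), with -0.87 in numbers 1 to 4 and -0.43 in numbers 5 to 8. *Sema5a*, a semaphorin with thrombospondin repeats, was far apart between the sets of numbers in both groups: it was at 63.21 to 149.87 CPM in *GFP*-NSPCs, against 64.21 to 108.43 CPM in *Dbx2*-NSPCs numbered 1 to 4, and at 5.46 to 9.97 and 10.13 to 15.35 CPM in those numbered 5 to 8. Its pooled log2 difference of 0.43 had a 95% interval from -1.11 to 1.96. In numbers 5 to 8 alone the groups did not overlap and *Sema5a* was called higher (log2 difference 0.75, adjusted p = 0.0421 over these libraries), against 0.10 in numbers 1 to 4 (adjusted p = 0.825). *Sema5b* was called lower in numbers 5 to 8 alone (-0.49, limma adjusted p = 0.0439), against 0.23 in numbers 1 to 4. *Sema7a*, at most 5.33 CPM, was called lower in numbers 1 to 4 alone (-1.58, limma adjusted p = 0.0196), against 0.16 in numbers 5 to 8. For none of these genes was a difference of the folds called.

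Of the 9 plexins, the receptors of semaphorins, *Plxna1* was higher and *Plxnc1* lower in *Dbx2*-NSPCs. *Plxna1* (ENSMUSG00000030084; chromosome 6, 89316314 to 89362620), a co-receptor for class 3 semaphorins, ran from 20.56 to 35.18 CPM in *GFP*-NSPCs (median 26.1) and from 29.22 to 44.24 CPM in *Dbx2*-NSPCs (median 38.6). It was higher in all 8 numbers, and the overlap of the groups came from 3 high *GFP*-NSPC libraries numbered 5 to 7 and 1 low *Dbx2*-NSPC library, number 1. *Plxna1* had a log2 fold change of 0.50 (SE 0.120, adjusted p by limma = 0.00788), with 0.52 in numbers 1 to 4 and 0.47 in numbers 5 to 8.

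*Plxnc1* (ENSMUSG00000074785; chromosome 10, 94790866 to 94944835), the receptor of *Sema7a*, ran from 7.51 to 27.86 CPM in *GFP*-NSPCs (median 19.0) and from 4.51 to 15.73 CPM in *Dbx2*-NSPCs (median 9.40). Each *Dbx2*-NSPC library was below the *GFP*-NSPC library of its number, while the pooled groups overlapped. Its log2 fold change was -0.91 (SE 0.302, adjusted p by limma = 0.0461), or -0.76 in numbers 1 to 4 against -1.06 in numbers 5 to 8, and the call was lost in 14 of 27 alternatives that keep both sets. Of the 12 tested genes that start within 1 Mb of *Plxnc1*, 9 were also called lower and 0 higher, with a median log2 fold change of -0.63.

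The plexins *Plxna2* and *Plxna4*, both receptors of *Sema6a*, were not called over all libraries, but their folds differed between the sets of numbers. *Plxna2* was at 57.21, 57.84, 60.60 and 69.98 CPM in *GFP*-NSPCs and at 30.82, 29.74, 25.72 and 29.06 CPM in *Dbx2*-NSPCs numbered 1 to 4, or -1.08 on the log2 scale (adjusted p by limma = 1.85e-04 over these libraries). In the libraries numbered 5 to 8 the levels were 35.18 to 61.04 CPM and 59.02 to 66.17 CPM, and the log2 fold change was 0.36 (adjusted p = 0.102). The difference of the folds was 1.43 (limma adjusted p of the difference = 1.80e-05). *Plxna4* had 2 reads in all over the *GFP*-NSPC libraries numbered 1 to 4 and 36 reads over the *Dbx2*-NSPC libraries of those numbers, a log2 fold change of 2.30, whereas both groups were at 3.11 to 9.42 CPM in numbers 5 to 8. For *Sema6a* itself the folds were -0.53 and 0.24, and their difference of 0.76 also passed the test (adjusted p = 0.0250).

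Neither neuropilin was called. *Nrp1*, the binding subunit for *Sema3a*, was the more abundant, with 24.11 to 40.79 CPM in *GFP*-NSPCs (median 28.6) and 26.19 to 52.81 CPM in *Dbx2*-NSPCs (median 39.5). It was higher in *Dbx2*-NSPCs in all 8 numbers, with a log2 difference of 0.35 (95% interval 0.03 to 0.67, limma adjusted p = 0.136), and was called with the replicate block (adjusted p = 0.0190). *Plxnb1*, a plexin that binds *Sema4d*, had a like difference of 0.35 (adjusted p = 0.0607) and was called with the block (adjusted p = 0.0261) and under 6 other alternatives, including both scalings, edgeR and DESeq2 (adjusted p up to 0.0494). A pseudogene, *Gm7628*, overlaps *Plxnb1* on the opposite strand, and the strand used in counting is not given in the sources used here.

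**Figure D3:**
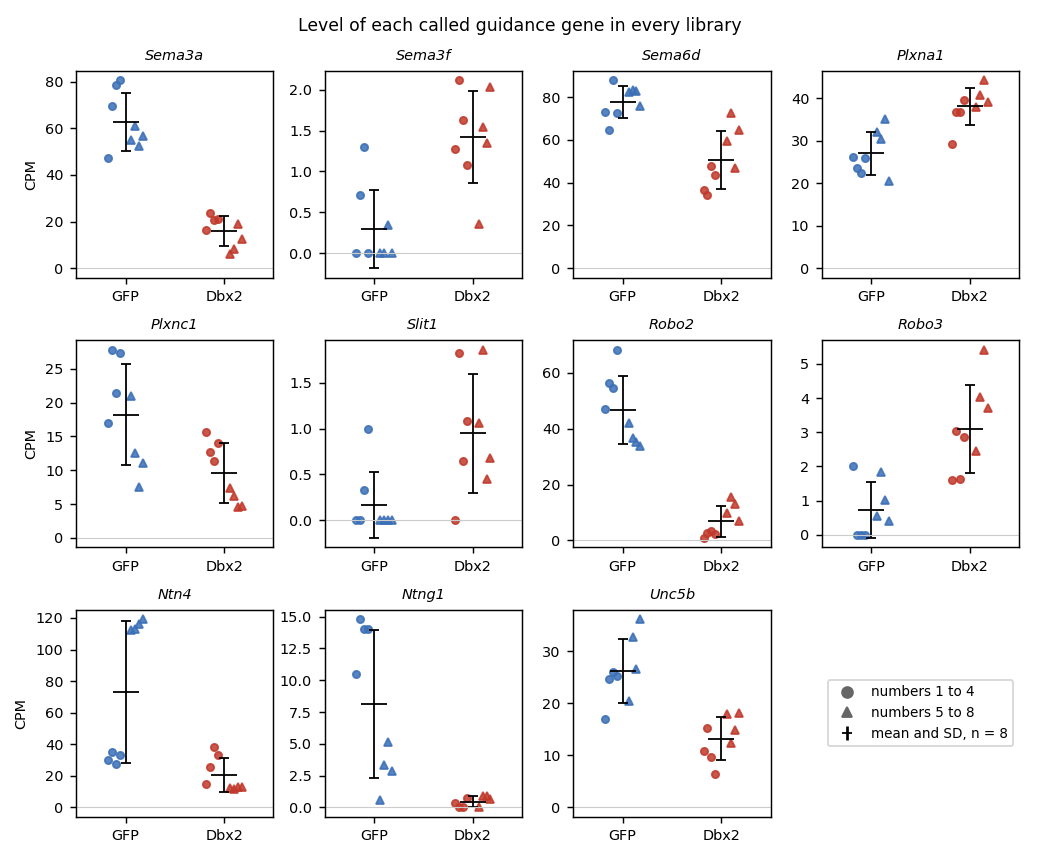
CPM (vertical axis, from 0) of the 11 called guidance genes in each *GFP*-NSPC (blue) and *Dbx2*-NSPC (red) library; circles are libraries numbered 1 to 4, triangles those numbered 5 to 8, and bars give the mean and SD of 8. Only *Sema3a* and *Robo2* show no overlap of the groups, *Ntn4* in *GFP*-NSPCs falls into separate clusters of circles and triangles, and *Sema3f*, *Slit1* and *Robo3* stay under 6 CPM.

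Summed over the family, the Robo receptors were at 49.35 to 70.98 CPM per *GFP*-NSPC library and at 3.53 to 30.75 CPM per *Dbx2*-NSPC library. In *GFP*-NSPCs most of this sum was *Robo2* (ENSMUSG00000052516; chromosome 16, 73891839 to 74411825), a Slit receptor and 1 of the genes with TAATTG in a promoter window. *Robo2* ran from 33.72 to 68.31 CPM in *GFP*-NSPCs (median 44.6) and from 0.96 to 15.53 CPM in *Dbx2*-NSPCs (median 5.18), so the groups did not overlap. By limma the change was -3.07 on the log2 scale (SE 0.402, adjusted p = 2.91e-05), and it stayed between -3.29 and -2.69 over the alternatives that keep both sets of numbers. It was lower in both sets of numbers but not by the same amount. In numbers 1 to 4, *Robo2* was at 47.14, 56.43, 54.41 and 68.31 CPM in *GFP*-NSPCs and at 0.96, 2.73, 3.26 and 2.15 CPM in *Dbx2*-NSPCs, a log2 fold change of -4.43. In numbers 5 to 8 it was at 42.11, 36.81, 35.18 and 33.72 CPM and at 9.86, 15.53, 13.09 and 7.09 CPM, which gives -1.71 on the log2 scale, and the folds differed by 2.73 (adjusted p of the difference = 8.68e-06).

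*Robo1*, the other main Slit receptor, lies next to *Robo2* on chromosome 16 (ENSMUSG00000022883; 72308306 to 73046095) and was lower in *Dbx2*-NSPCs in all 8 numbers, but it was not called over all libraries. In numbers 1 to 4 it had 55 reads over the *GFP*-NSPC libraries (2.67 to 6.85 CPM) and 7 over the *Dbx2*-NSPC libraries, none with more than 3 reads. In numbers 5 to 8 it was at 11.35 to 17.42 CPM in *GFP*-NSPCs, against 5.42 to 11.18 CPM in *Dbx2*-NSPCs. The groups did not overlap within either set, whereas the pooled ranges of 2.67 to 17.42 and 0 to 11.18 CPM did. The pooled log2 difference was -1.69 (SE 0.596, adjusted p by limma = 0.0597), against -2.43 in numbers 1 to 4 (adjusted p = 0.00303) and -0.96 in numbers 5 to 8 (adjusted p = 0.0151), and with the replicate block the adjusted p was 0.00141. Counted from their GENCODE starts, *Robo1* and *Robo2* had no other tested gene starting within 1 Mb of either. The upstream *Robo2* start, whose window holds TAATTG, was not used for this count.

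*Robo3* (ENSMUSG00000032128; chromosome 9, 37415669 to 37433246), a divergent Robo known from commissural axons, whose promoter window holds TAATTA, moved the other way at a low level. It had 16 reads over all *GFP*-NSPC libraries, with 0 in numbers 2, 3 and 4 and at most 2.01 CPM, and 71 reads over all *Dbx2*-NSPC libraries, from 1.61 to 5.42 CPM. *Robo3* was higher in *Dbx2*-NSPCs in 7 of 8 numbers, the exception being number 1. *Robo3* gave a log2 fold change of 1.76 (SE 0.386, adjusted p by limma = 0.00391), or 1.85 in numbers 1 to 4 and 1.66 in numbers 5 to 8, which ran from 0.92 to 2.74 over the alternatives.

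*Slit1*, the only Slit gene that could be tested, stayed at the floor. It had 4 reads over all *GFP*-NSPC libraries and 23 over all *Dbx2*-NSPC libraries, and only 2 *Dbx2*-NSPC libraries, numbers 2 and 6, exceeded 3 reads, each with 6. The limma adjusted p was 0.0476, and it was 0.0505 with the replicate block and from 0.0157 to 0.0942 over the alternatives that keep both sets, so the call was lost in 18 of 26. No fold is given or drawn for *Slit1*, because it averaged under 3 reads per library in both groups. It entered the test through *Dbx2*-NSPCs alone.

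**Figure D4:**
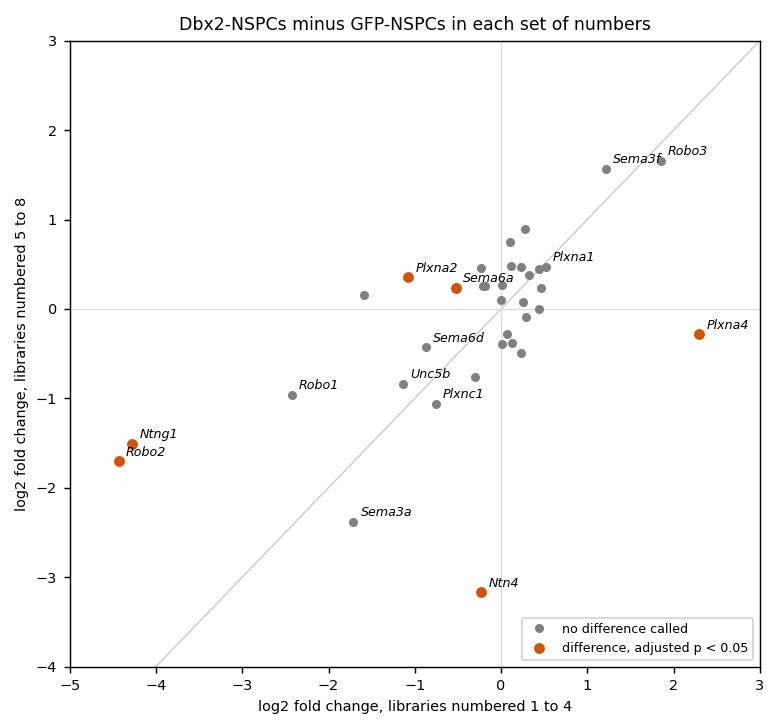
Log2 fold change of 35 tested guidance genes (without *Slit1* and *Sema3d*) in the libraries numbered 1 to 4 (horizontal axis) and 5 to 8 (vertical axis), each over 4 against 4 libraries, with the line of equality in grey. Orange points are the 6 genes whose folds differed between the sets at an adjusted p under 0.05: *Robo2*, *Ntng1*, *Plxna2* and *Sema6a* lie above the line, *Ntn4* and *Plxna4* below it.

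Of the netrins, *Ntn4* and *Ntng1* were lower in *Dbx2*-NSPCs and *Ntn1* was not called. *Ntn4* (ENSMUSG00000020019; chromosome 10, 93640681 to 93747207), a netrin that binds laminins in basement membranes, gave a pooled log2 fold change of -1.70 (SE 0.374, adjusted p by limma = 0.00394), which describes neither set of numbers. In numbers 5 to 8 it was at 112.49, 113.18, 116.11 and 119.26 CPM in *GFP*-NSPCs and at 12.32, 11.80, 12.64 and 12.83 CPM in *Dbx2*-NSPCs, a log2 fold change of -3.17 (adjusted p = 6.09e-10 over these libraries). In numbers 1 to 4 it was at 29.81, 34.92, 27.70 and 32.99 CPM in *GFP*-NSPCs and at 15.09, 25.49, 38.42 and 33.37 CPM in *Dbx2*-NSPCs, a log2 fold change of -0.23 (adjusted p = 0.586). The difference of these folds, -2.94, had the smallest adjusted p of the 37 genes, 4.25e-08. The *GFP*-NSPC libraries alone thus differed by number: their mean was 31.4 ± 3.22 CPM in numbers 1 to 4 and 115.3 ± 3.09 CPM in numbers 5 to 8 (SD, n = 4 each).

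*Ntn4* lies 1.304 Mb from *Plxnc1*, counted between their starts, and its neighbours were lower as well. Of the 12 tested genes that start within 1 Mb of *Ntn4*, 9 were called lower and 0 higher, with a median log2 fold change of -0.82. The median over these neighbours was -0.72 in numbers 1 to 4, where *Ntn4* was at -0.23, and -0.68 in numbers 5 to 8, where *Ntn4* was at -3.17. Over the whole of chromosome 10, 227 of 613 tested genes were called lower (37.0%) and 22 higher, against 7.78% called lower over all chromosomes. Of the 7 guidance genes called lower, *Ntn4*, *Plxnc1* and *Unc5b* lie on this chromosome. The part of these neighbours in the results for the 3 genes was not tested.

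**Figure D5:**
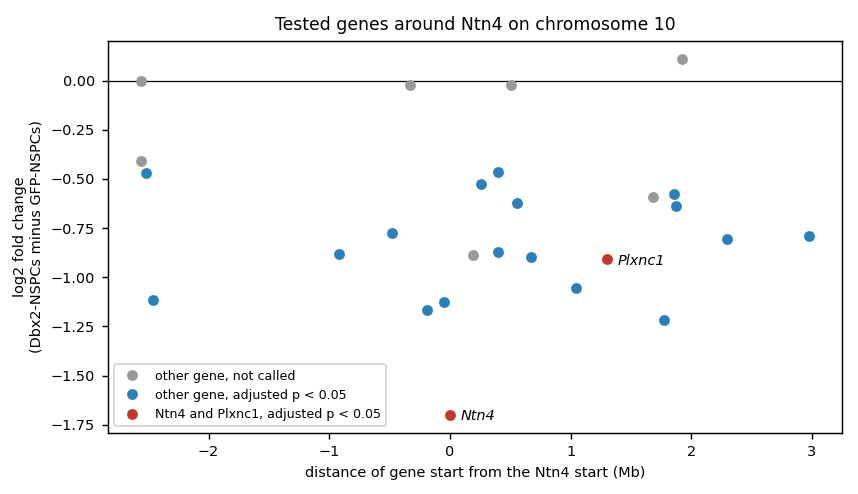
Log2 fold change over all libraries (vertical axis) of tested genes on chromosome 10 against the distance of their start from that of *Ntn4*, in Mb (horizontal axis). Blue genes were called lower, grey genes were not called, and *Ntn4* (-1.70) lies below all other genes shown while *Plxnc1* (-0.91) lies among them.

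*Ntng1* (ENSMUSG00000059857; chromosome 3, 109780040 to 110144011), a netrin anchored to the membrane with TAATTG in its promoter window, had 187 reads over all *GFP*-NSPC libraries and 10 over all *Dbx2*-NSPC libraries, where none had more than 3. In *GFP*-NSPCs numbered 1 to 4 it was at 10.47, 14.81, 14.01 and 14 CPM, and in those numbered 5 to 8 at 0.55, 3.37, 5.12 and 2.88 CPM. It passed the filter through *GFP*-NSPCs alone. In *Dbx2*-NSPCs it was at 0 to 0.93 CPM and below the *GFP*-NSPC library of its number in all 8. Over all libraries the log2 fold change was -2.89 (SE 0.498, adjusted p by limma = 4.71e-04), with -4.28 in numbers 1 to 4 and -1.51 in numbers 5 to 8 (adjusted p = 0.0542 over these libraries). Since the *Dbx2*-NSPC level lay under the floor, the size of this fold depends on the pseudocount and the tool, and it ran from -4.23 to -1.81 over the alternatives that keep both sets. *Ntn1*, the founding netrin, was at 24.99 to 58.18 CPM and 24.40 to 46.59 CPM, with a log2 difference of -0.19 (95% interval -0.59 to 0.21, adjusted p = 0.555).

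Of the netrin receptors, only *Unc5b* was called. *Unc5b* (ENSMUSG00000020099; chromosome 10, 60762593 to 60831581), which mediates repulsion by netrin-1, ran from 16.92 to 36.19 CPM in *GFP*-NSPCs (median 25.7) and from 6.46 to 18.23 CPM in *Dbx2*-NSPCs (median 13.7). The ranges overlapped through *GFP*-NSPC library 1, and all 8 numbers were lower in *Dbx2*-NSPCs. This made a log2 fold change of -0.99 (SE 0.200, adjusted p by limma = 0.00205), with -1.14 in numbers 1 to 4 and -0.84 in numbers 5 to 8. Of 18 tested genes that start within 1 Mb of *Unc5b*, 5 were called lower and 1 higher, with a median log2 fold change of -0.21. *Unc5a* and *Unc5c* were at most 3.95 and 12 CPM in any library and their differences changed sign between alternatives.

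Part of the spread within a group followed the numbers. In *GFP*-NSPCs, 14 of the 37 guidance genes did not overlap between numbers 1 to 4 and 5 to 8, against 28.9% of all tested genes. In *Dbx2*-NSPCs, 10 of the 37 did not overlap, against 19.8% of all tested genes. *Sema5a*, *Sema6a*, *Sema6b*, *Robo1*, *Robo2* and *Ntn4* were among them in both groups. Fitted alone, numbers 1 to 4 gave 13 calls (3 higher, 10 lower; 15.6% of all genes were called) and numbers 5 to 8 gave 15 (7 higher, 8 lower; 23.2% of all genes). The fold itself differed between the sets in 6 of the 37 genes, *Sema6a*, *Plxna2*, *Plxna4*, *Robo2*, *Ntn4* and *Ntng1*, against 9.44% of all tested genes.

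The genes that work with these cues were followed in a list of 65 co-receptors, adaptors and effectors, of which 60 were tested. Of these, 14 were called (23.3%, against 15.8% of all tested genes), 7 higher and 7 lower (8.03% and 7.78% of all tested genes), with a median log2 fold change of -0.06. *Pak1*, a kinase activated by Rac and Cdc42 downstream of guidance receptors, showed the largest difference, from 75.92 to 118.09 CPM in *GFP*-NSPCs and from 0.91 to 6.69 CPM in *Dbx2*-NSPCs (log2 fold change -4.84, limma adjusted p = 5.12e-10). *Chl1*, an adhesion molecule that takes part in *Sema3a* signalling, was at 30.05 to 472.27 CPM and 5.40 to 31.59 CPM (log2 fold change -3.06, adjusted p = 0.00526). *Dpysl3*, a relative of the collapsin response mediator that acts after *Sema3a*, was at 216.86 to 397.84 CPM and 34.14 to 313.24 CPM (log2 fold change -1.57, adjusted p = 0.0231).

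*Lrrc4c*, the postsynaptic ligand that binds *Ntng1*, was higher, with 1.02 to 35.98 CPM in *GFP*-NSPCs, against 16.51 to 51.56 CPM in *Dbx2*-NSPCs (log2 fold change 2.16, adjusted p = 0.0215). Its fold depended on the numbers, with a log2 fold change of 0.24 in numbers 1 to 4 and 4.08 in numbers 5 to 8 (adjusted p of the difference = 6.75e-07). The folds of *Chl1* and *Dpysl3* also differed between the sets, and for *Pak1* no such difference was called (adjusted p = 0.507). Of the Slit-Robo GTPase activating proteins, *Srgap1* was lower (log2 fold change -0.73, adjusted p = 0.00893) and *Srgap3* higher (0.84, adjusted p = 0.00320). The other called genes of the list were *Ptk2*, *Enah* and *Dpysl2*, which were lower, and *Chn2*, *Rnd2*, *Nck2*, *Cntn2* and *Dpysl4*, which were higher. *Cntn2*, at most 0.98 CPM in *GFP*-NSPCs, had log2 fold changes of 0.07 in numbers 1 to 4 and 3.38 in numbers 5 to 8. For *Srgap3* they were 0.48 and 1.21. Both genes passed limma's test of unequal folds (adjusted p = 8.86e-04 and 0.0118). Of the 60 tested partner genes, called or not, 14 passed it, against 9.44% of all tested genes.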

How the data were processed

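RNA of 16 cultures, 8 per group, had been made into libraries from 100 ng of total RNA with a 3′ mRNA kit and sequenced with single reads of 101 bp. The authors trimmed the reads, aligned them with STAR 2.5.0a to GRCm38 with Ensembl annotation and deposited CPM for 30386 genes; the counting tool and its strand setting are not given in the sources used here. Whole reads were recovered from 99.9981% of the CPM above 0, within 0.0051 CPM.

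Groups follow the transgene given in the labels. The study fits the cell line as a covariate, but the labels do not give it, and no covariate was used. The filter kept the 12533 genes above 1 CPM in 4 or more samples. The test was limma (version 3.58.1, R 4.3.3; lmFit, eBayes with trend, 2-sided) of log2(CPM + 0.5), with Benjamini-Hochberg adjustment over all of them and a threshold of 0.05. The difference of folds between numbers 1 to 4 and 5 to 8 was a contrast in the same tool. Each tool was tested on simulated data. Samples of the same number had residuals that correlated at 0.152 to 0.303 in all 8 pairs, 0.226 on average. Samples of other numbers within the same set correlated at 0.199 on average and those across sets at -0.206. In 4 of 8 pairs the *GFP*-NSPC library correlated best with the library of its own number. The numbers were taken as pairs for the replicate block and the counts of numbers, but these correlations do not settle whether they are pairs.

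The guidance genes were matched by symbol. Named with full values are those called, those whose folds differed between the sets and the most abundant of a family; others named were chosen after their values were seen. Partner genes named with their ranges have at least 10 CPM in a group and a fold of at least 2. The genes and lists were chosen with earlier results of these data known. Positions came from GENCODE M21 and promoter windows from RefSeq. Alternatives were pseudocounts of 0.1 and 2, other filters and scalings, eBayes without trend, the replicate block, the set of numbers as a covariate, each set alone, each sample left out, and count tests of the recovered reads with DESeq2 1.42.0 and edgeR 4.0.16. Tables and plots used Python 3.11.15, pandas 2.3.3 and matplotlib 3.10.9. No column of the table was left out.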

Additional observations from a re-analysis of the deposited data

Results flagged for a closer look

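Of 74 groups of 8 libraries examined (each tested gene in each group), 6 held a library far from the others, and chance gives about 1 in 20. In *Dbx2*-NSPC library 1, *Sema3d* was high at 0.96 CPM, *Plxna1* was low at 29.22 CPM and *Plxnb3* was low at 1.28 CPM. In *Dbx2*-NSPC library 5, *Sema3f* was low at 0.35 CPM. In *GFP*-NSPC library 7, *Plxna2* was low at 35.18 CPM, and in *GFP*-NSPC library 4, *Slit1* was high at 1 CPM. The values of *Sema3d*, *Sema3f* and *Slit1* correspond to 3 reads or fewer.

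The log2 fold change differed between the libraries numbered 5 to 8 and those numbered 1 to 4 in 6 genes, by limma's test of the difference. The fold in numbers 5 to 8 less that in numbers 1 to 4 was 0.76 for *Sema6a* (adjusted p = 0.0250), 1.43 for *Plxna2* (1.80e-05), -2.58 for *Plxna4* (0.00181), 2.73 for *Robo2* (8.68e-06), -2.94 for *Ntn4* (4.25e-08) and 2.77 for *Ntng1* (0.00713). No *Dbx2*-NSPC library of either set exceeded 3 reads for *Ntng1*. Its difference thus reflects the *GFP*-NSPC level, on average 13.3 CPM in numbers 1 to 4 and 2.98 CPM in numbers 5 to 8. For *Plxna4* no *GFP*-NSPC library numbered 1 to 4 exceeded 3 reads. The size of both differences depends on the pseudocount. The estimates for *Plxna2*, *Plxna4* and *Sema6a* changed sign between the sets. Their folds in numbers 5 to 8 were not called (limma adjusted p = 0.102, 0.558 and 0.117 over these libraries). The fold of *Sema6a* in numbers 1 to 4 was not called either (limma adjusted p = 0.0827). Those of *Robo2*, *Ntn4* and *Ntng1* were negative in both sets. The labels do not give the line of a library, and whether these sets are lines was not tested.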

How the results depend on the processing

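The count of guidance genes called was 11 and ran from 9 to 15 over the alternatives and from 9 to 11 with 1 library left out; for genes called lower it was 7 (6 to 10, and 6 to 7), and for folds that differ between the sets 6 (5 to 7, and 5 to 8). The count of partner genes was 14 (13 to 20, and 12 to 18). The number called higher was 4 (3 to 4 with 1 library left out) but 2 with a filter on a mean of at least 1 CPM, which leaves 34 of the genes and drops *Sema3f* and *Slit1*, and 7 both with the set of numbers as a covariate and in numbers 5 to 8 alone.

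Of 996 single-gene results under alternatives that keep both sets of numbers, 920 kept their direction and their side of the threshold, and 9 of the 11 called genes did so under all of those. In the sets alone, *Ntn4* and *Sema3f* were not called in numbers 1 to 4 (adjusted p = 0.586 and 0.113), *Ntng1* was not in numbers 5 to 8 (0.0542), and *Slit1* was not in numbers 1 to 4 (0.447). *Plxnc1* lost its call without *GFP*-NSPC library 1, 2, 3, 4 or 5 or *Dbx2*-NSPC library 3, 5, 6, 7 or 8 (adjusted p up to 0.0924). *Slit1* lost it without any library except *GFP*-NSPC 4 and *Dbx2*-NSPC 1 and 7 (up to 0.0942). *Robo1* gained a call without *GFP*-NSPC library 4 (adjusted p = 0.0428) or *Dbx2*-NSPC library 6 (0.0260) or 8 (0.0392), and *Plxnb1* without *GFP*-NSPC library 3 (0.0404). The replicate block, which pairs the libraries by number, gave 14 calls: it added *Sema3c*, *Plxnb1*, *Nrp1* and *Robo1*, removed *Slit1*, and changed no other call. The set of numbers as a covariate also added those 4, and *Plxnb1* was called as well with both other scalings, edgeR and DESeq2.

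The direction reversed only in genes that were not called. With 1 library left out, the log2 fold change ran from -0.11 to 0.15 for *Sema4c*, -0.28 to 0.047 for *Sema6a*, -0.014 to 0.43 for *Sema6c*, -0.24 to 0.030 for *Plxnb3*, -0.066 to 0.13 for *Plxnd1*, -0.43 to 0.12 for *Nrp2*, -0.18 to 0.27 for *Unc5a* and -0.045 to 0.62 for *Unc5c*. With edgeR and DESeq2 it reversed for *Sema6a* (0.013 and 0.015) and *Unc5c* (-0.039 and -0.014), and for *Unc5a* with a pseudocount of 0.1 (-0.16) and quantile scaling (-0.18). The causes were not tested. Depth limits the genes under a few CPM, where a library holds only a few reads of the gene and the size of a fold depends on the pseudocount.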
